A study of Mus musculus with 16 samples.

Results

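The collagen genes of mouse gonadal white adipose tissue were compared between fasted and fed animals. The genes were all those whose symbol has the form Col, a type number, the letter a and a chain number, taken from probe sets that the platform annotation assigns to 1 symbol. This rule found 44 genes on 47 probe sets, out of 22180 genes measured with 1 symbol. Where a gene had several probe sets, the brightest on average was used, as was the case for Col1a2, Col5a1 and Col6a1. RefSeq (assembly GRCm38.p6) lists the same 44 symbols and no other of this form. By structure they comprised 11 fibrillar, 9 network-forming, 6 beaded, 9 FACIT and 2 multiplexin collagens, along with 4 transmembrane collagens and 3 others. FACIT stands for fibril-associated collagens with interrupted triple helices.

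The samples were 8 from male C57BL/6 mice fasted for 16 hours and 8 from fed male C57BL/6 mice. All mice were 3 to 4 months old, and tissue was taken in the morning. Total RNA was labelled for Affymetrix whole-transcript arrays, 1 array per sample. Whether each sample came from its own mouse is not stated, so a p-value refers to the spread among these arrays, part of which may be technical.

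Collagens are the main structural proteins of the extracellular matrix, built as triple helices of chains with a regularly repeated glycine. Fibrillar collagens such as types I, III and V form the cables between cells, and type IV collagen forms the sheet of the basement membrane that wraps each adipocyte and blood vessel. Type VI collagen forms beaded filaments next to the basement membrane and is known from obese fat, where it limits how far adipocytes can expand. The FACIT collagens sit on the surface of fibrils, and the multiplexins, types XV and XVIII, link basement membranes to the matrix around them. In fat these genes are expressed by adipocytes, by fibroblast-like stromal cells and by vascular cells. In a bulk sample, fewer cells of a type and less RNA per cell cannot be told apart.

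The type IV genes Col4a1 and Col4a2 share a start region, and the promoter windows shown here are theirs, with that of Col15a1, the collagen with the largest fall. Each window runs from 250 bases before to 50 bases after 1 start site listed for the gene (GRCm38.p6). It is given 5′ to 3′ on the strand of the gene. For Col15a1 that site, 47208012, lies inside the gene, whose RefSeq span begins at 47207655. For Col4a1, on the minus strand, the site is 11312826 and the span reaches 11312889. Capitals mark the GC box (GGGCGG) and the CCAAT box (CCAAT) on either strand. The Col4a1 window lies at chr8:11312777-11313076 on the minus strand, the Col4a2 window at chr8:11312555-11312854 on the plus strand and the Col15a1 window at chr4:47207762-47208061 on the plus strand.
Col4a1: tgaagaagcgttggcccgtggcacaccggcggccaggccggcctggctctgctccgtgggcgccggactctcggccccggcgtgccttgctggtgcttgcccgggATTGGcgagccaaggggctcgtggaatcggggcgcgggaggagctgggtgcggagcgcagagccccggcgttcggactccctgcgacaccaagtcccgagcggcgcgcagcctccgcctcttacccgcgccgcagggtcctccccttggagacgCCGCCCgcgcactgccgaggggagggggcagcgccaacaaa
Col4a2: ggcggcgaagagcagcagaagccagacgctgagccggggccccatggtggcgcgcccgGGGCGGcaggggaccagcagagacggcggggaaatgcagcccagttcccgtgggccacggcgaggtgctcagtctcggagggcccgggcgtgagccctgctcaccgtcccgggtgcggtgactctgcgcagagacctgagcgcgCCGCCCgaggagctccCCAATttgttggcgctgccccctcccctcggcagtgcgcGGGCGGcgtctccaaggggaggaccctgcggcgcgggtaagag
Col15a1: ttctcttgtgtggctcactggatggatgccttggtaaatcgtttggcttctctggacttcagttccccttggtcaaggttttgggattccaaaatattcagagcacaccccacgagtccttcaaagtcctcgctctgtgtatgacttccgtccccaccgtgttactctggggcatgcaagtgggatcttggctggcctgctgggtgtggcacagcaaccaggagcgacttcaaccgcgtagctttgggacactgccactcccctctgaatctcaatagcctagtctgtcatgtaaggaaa

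The Col4a1 and Col4a2 windows are opposite strands of the same region over 78 bases, and the 2 start sites used for them lie 21 bases apart. The Col4a1 window held 1 GC box and 1 CCAAT box, the Col4a2 window 3 GC boxes and 1 CCAAT box, and 1 of those GC boxes is the same site read from both sides. The Col15a1 window held neither. The G and C content was 74.0% for Col4a1 and 73.7% for Col4a2, and 52.3% for Col15a1, against a median of 52.7% over all 32851 windows of the same length. Over all windows, 35.7% held a GC box and 37.4% a CCAAT box, counted on both strands. Windows were listed for 35 of the 44 collagens. The 9 without one were Col1a1, Col2a1, Col4a3, Col5a2, Col9a3, Col12a1, Col14a1, Col22a1 and Col26a1.

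Collagen transcripts were more often lower than higher in fasted tissue. In fasted arrays 11 of the 44 collagens were lower and 1, Col4a1, was higher, at an adjusted p under 0.05 by limma with Benjamini-Hochberg adjustment over 22180 genes. The 12 called genes are 27.3% of the collagens, and 19.2% of all genes were called, 10.7% lower and 8.49% higher. The fall was at least 1.5-fold in 8 of the 11, and 1 of them, Col15a1, fell more than 4-fold. The median log2 fold change, fasted over fed, was -0.03 over the 44 collagens and -0.0042 over all genes. The falls lay in the fibrillar (4 of 11), beaded (4 of 6), multiplexin (2 of 2) and transmembrane (1 of 4) genes, none of the 9 FACIT genes was called, and the call of 1 of the 9 network genes was a rise. In 4 of the 11, Col3a1, Col5a1, Col6a6 and Col15a1, no fasted array reached the lowest fed array, and none of the 44 stood wholly above the fed arrays. Over all genes, 3.45% lay wholly below and 3.03% wholly above.

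Of the 44 genes, 21 reached a linear value of 20 (4.32 on the log2 scale) in at least 8 arrays, and all 12 called genes were among them. Of all 10832 genes at this level, 34.6% were called. The other 23 collagens were dim, with values close to background. They were Col2a1, Col11a1, Col11a2, Col24a1 and Col27a1 of the fibrillar genes, Col4a3, Col4a4, Col4a6, Col8a2 and Col10a1 of the network genes, Col6a4 of the beaded genes, and Col9a1, Col9a3, Col16a1, Col19a1, Col20a1 and Col22a1 of the FACIT genes. The remaining 6 were Col13a1, Col17a1, Col25a1, Col7a1, Col26a1 and Col28a1. Of these 23, Col7a1, of the anchoring fibrils of skin, had the lowest p, with a log2 fold change of 0.21 (SE 0.075, limma adjusted p = 0.0592).

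**Figure D1:**
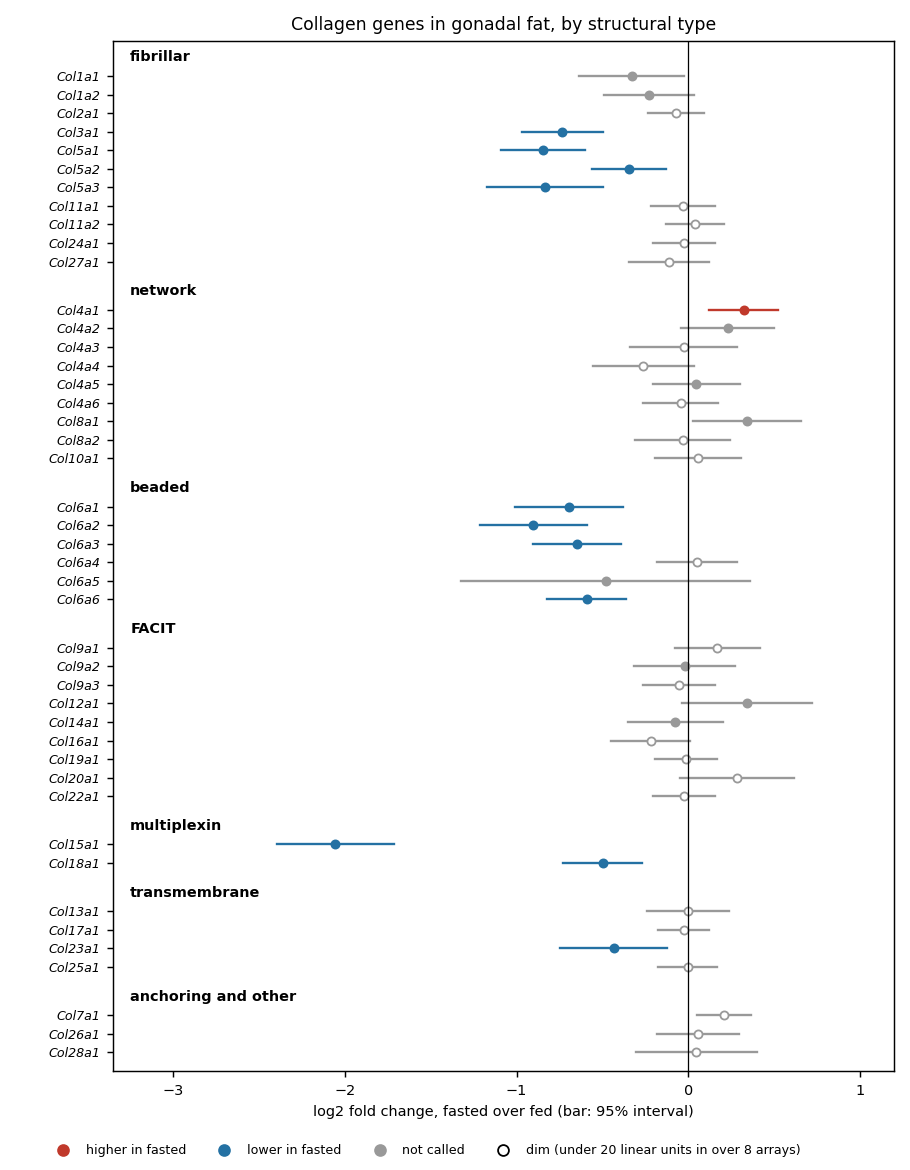
Log2 fold change, fasted over fed, of the 44 collagen genes with its 95% interval, arranged by structural type. Blue marks the 11 genes that were lower in fasted arrays, red the 1 that was higher, grey the 32 that were not called, and open circles the 23 dim genes; Col15a1 stands far left at -2.06.

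Some facts of the whole series bear on every value. The deposited values lay between 0.99 and 13.2 on the log2 scale, array medians between 3.60 and 3.69, and correlations between arrays between 0.966 and 0.993. All 9 adipocyte markers listed for the check of the tissue, among them Adipoq, Fabp4 and Plin1, were above the dim range, and their mean lay between 11.1 and 11.3 in every array. Ciliated epithelium transcripts, all 8 of them dim, were high in fasted replicate 7 and fed replicate 2 (mean log2 level of 8 genes 4.59 and 5.09, at most 3.37 in the other arrays). Hepatocyte transcripts ranged from 6.70 to 8.82 in fasted and from 6.51 to 9.46 in fed arrays, with the highest value in fed replicate 3. Some calls of a collagen, a collagen pair or a named partner gene were lost without fasted replicate 7 and fed replicates 2 and 3. For these the value without the 3 arrays is given too. This does not cover the partner genes Plod2, Sec23a, Tnxb and Lamb1, which were not followed singly through the alternatives.

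Among the fibrillar collagens, the genes of types III and V fell and those of type I did not pass the test. Col3a1, whose chain forms fibrils together with type I in tissues that stretch, had a lowest, median and highest log2 value of 8.66, 9.21 and 9.49 in fasted arrays, against 9.62, 9.93 and 10.26 in fed arrays. All 8 fasted arrays lay below all 8 fed arrays. Its fall was 1.66-fold (9.17 ± 0.27 in fasted and 9.90 ± 0.20 in fed arrays, SD, n = 8 each, limma adjusted p = 9.94e-05).

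Type V collagen starts the assembly of fibrils and sets their width. Col5a1, its main chain, ran from 5.79 through a median of 6.02 to 6.48 in fasted arrays, against 6.55, 6.90 and 7.36 in fed arrays. The groups did not overlap, and the fall was 1.80-fold (log2 fold change -0.85, SE 0.116, limma adjusted p = 2.85e-05). The other Col5a1 probe set was dim and gave -0.26 (adjusted p = 0.150), so the size of this fall rests on 1 probe set. Col5a3, a chain of some type V molecules, stood at 5.96, 6.48 and 7.24 in fasted arrays, against 6.88, 7.5 and 7.75 in fed arrays. Only fasted replicate 4, at 7.24, reached into the fed range, and the fall was 1.78-fold (log2 fold change -0.83, SE 0.161, limma adjusted p = 8.65e-04). Col5a2, the partner chain of Col5a1, had 6.36, 6.51 and 6.79 in fasted arrays, against 6.61, 6.83 and 7.37 in fed arrays. Here 5 of 8 fasted arrays lay below the fed range, and the fall was smaller, 1.27-fold (log2 fold change -0.35, SE 0.102, limma adjusted p = 0.0210).

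Type I collagen, the most widespread fibril collagen of the body, had lower means in fasted arrays, and neither of its genes passed the adjusted threshold. Col1a1 had 8.14, 8.80 and 9.38 as its lowest, median and highest value in fasted arrays, against 8.65, 9.11 and 9.46 in fed arrays. The log2 fold change was -0.33 (95% interval -0.63 to -0.02, limma adjusted p = 0.135), and without fasted replicate 1, the highest fasted array, it was -0.41 (adjusted p = 0.0354), which is past the threshold. Col1a2 had 8.76, 9.07 and 9.69 in fasted arrays, against 9.02, 9.33 and 9.80 in fed arrays. Its log2 fold change was -0.23 (95% interval -0.49 to 0.03, limma adjusted p = 0.242), and the other Col1a2 probe set gave the same size, -0.23.

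Of the 9 network collagens 1, Col4a1, was called, and it rose. Col4a1, a chain of the type IV collagen present in all basement membranes, had 9.0, 9.13 and 9.43 in fasted arrays, against 8.53, 8.90 and 9.16 in fed arrays. Of the 8 fasted arrays 4 lay above the fed range and none below it. The rise was 1.25-fold (log2 fold change 0.32, SE 0.096, limma adjusted p = 0.0221). Without fasted replicate 7 and fed replicates 2 and 3 it was 0.22 and did not pass (adjusted p = 0.145). Col4a2, the other chain of the same molecule, had 8.21, 8.40 and 8.88 in fasted arrays, against 7.77, 8.36 and 8.66 in fed arrays. Its log2 fold change was 0.23 (95% interval -0.04 to 0.50, limma adjusted p = 0.266), so the ranges overlapped widely, and without those 3 arrays it was 0.08 (adjusted p = 0.753).

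Markers of endothelial cells, which make type IV collagen, were read beside Col4a1 and Col4a2. Of 10 such markers 4 rose (Eng, Flt1, Pecam1 and Tek) and none fell, and the mean of the list lay between 8.45 and 8.80 in fasted and between 8.23 and 8.67 in fed arrays. All 10 were above the dim range, where 34.6% of all genes were called in either direction, so the count of 4 is near that share. The 4 calls were all rises. Of the uncalled markers, Tie1 had a log2 fold change of -0.27 (limma adjusted p = 0.0710) and Emcn -0.04, and the others had positive values. In a fit of the 10832 genes above the dim range alone, 1970 rose and 2583 fell. The part of endothelial cells in the rise of Col4a1 was not tested.

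Of the other network genes, Col4a5, known from kidney basement membranes, had a log2 fold change of 0.05 (SE 0.12). Col8a1, a short-chain collagen of vessel walls, had 4.86, 5.23 and 5.59 in fasted arrays, against 4.41, 4.94 and 5.33 in fed arrays. Its log2 fold change was 0.34, with 3 of 8 fasted arrays above the fed range, and did not pass (SE 0.15, limma adjusted p = 0.135). The 5 dim network genes had log2 fold changes between -0.26 and 0.06.

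Of the 6 beaded collagens 4 fell, Col6a1, Col6a2, Col6a3 and Col6a6, and neither Col6a4 nor Col6a5 was called. Col6a1 and Col6a2 encode the short chains of type VI collagen, and Col6a3 the long chain whose end is cut off as the signalling fragment endotrophin. Col6a1 had 8.54, 8.94 and 9.67 in fasted arrays, against 9.16, 9.79 and 9.98 in fed arrays. In Col6a1 6 of 8 fasted arrays lay below the fed range, and the fall was 1.62-fold (log2 fold change -0.70, SE 0.149, limma adjusted p = 0.00216). The other Col6a1 probe set gave a fall of 1.80-fold (log2 fold change -0.85).

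Col6a2 had 7.16, 7.59 and 8.42 in fasted arrays, against 8.20, 8.60 and 8.90 in fed arrays. In all fasted arrays but replicate 4 the value was below the fed range, and the fall was 1.87-fold (log2 fold change -0.90, SE 0.148, limma adjusted p = 1.87e-04). Col6a3 had 6.58, 6.94 and 7.44 in fasted arrays, against 7.10, 7.60 and 7.80 in fed arrays. Again 7 of 8 fasted arrays lay below the fed range, and the fall was 1.57-fold (log2 fold change -0.65, SE 0.122, limma adjusted p = 7.00e-04).

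Col6a4, Col6a5 and Col6a6 encode further long chains of this family. Col6a4 was dim, with a log2 fold change of 0.05 (limma adjusted p = 0.839). Col6a6 had 5.25, 5.52 and 5.79 in fasted arrays, against 5.85, 6.05 and 6.60 in fed arrays. The groups did not overlap, and the fall was 1.51-fold (log2 fold change -0.59, SE 0.110, limma adjusted p = 6.38e-04). Col6a5 varied more within each group than any other of the 44 genes, with an SD of 0.94 in fasted and 0.88 in fed arrays. It ran from 5.85 through 6.41 to 8.34 in fasted arrays, against 6.58, 7.11 and 8.75 in fed arrays. Its highest arrays were fasted replicates 7, 1 and 3 (8.34, 7.82 and 7.73) and fed replicates 6 and 2 (8.75 and 8.63), and its log2 fold change of -0.48 had an interval from -1.32 to 0.36 (limma adjusted p = 0.503). Fed replicate 2 and fasted replicate 7 are also the arrays with the highest ciliated epithelium transcripts, and fed replicate 6 comes next among the fed arrays, whereas fasted replicates 1 and 3 had low ciliated levels (2.86 and 2.85). The part of those cells in the Col6a5 values was not tested.

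The multiplexins both fell, and by different amounts. Col15a1, a proteoglycan core of the zone between basement membrane and fibrils, had 5.88, 6.52 and 7.22 in fasted arrays, against 8.15, 8.70 and 8.79 in fed arrays. The gap between the highest fasted and the lowest fed array was larger than the SD of either group (6.47 ± 0.41 in fasted and 8.53 ± 0.29 in fed arrays, SD, n = 8 each). The log2 fold change was -2.06 (95% interval -2.40 to -1.72, limma adjusted p = 4.57e-08), a 4.16-fold fall. Col18a1, whose end is released as endostatin, an inhibitor of vessel growth, had 5.71, 5.96 and 6.17 in fasted arrays, against 6.07, 6.50 and 6.73 in fed arrays. In Col18a1 4 of 8 fasted arrays lay below the fed range, and the fall was 1.41-fold (log2 fold change -0.50, SE 0.110, limma adjusted p = 0.00270).

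The FACIT genes showed no call in either direction. Col14a1, which binds the surface of type I fibrils, had 7.10, 7.21 and 8.07 in fasted arrays, against 7.09, 7.42 and 7.78 in fed arrays (log2 fold change -0.07, 95% interval -0.35 to 0.20, limma adjusted p = 0.788). This interval leaves out a fall of the size seen in Col3a1. Col12a1, of the same group, had 4.82, 5.32 and 5.93 in fasted arrays, against 4.39, 5.12 and 5.63 in fed arrays. Its log2 fold change was 0.34 with an interval from -0.04 to 0.72 (limma adjusted p = 0.227), so a rise of that size is not shown, and without the 3 arrays it was 0.22 (adjusted p = 0.516). Col9a2, of cartilage type IX, had a log2 fold change of -0.02 (SE 0.14).

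Of the transmembrane collagens 1 was called. Col23a1 had 3.86, 4.42 and 4.81 in fasted arrays, against 4.39, 4.90 and 5.04 in fed arrays. Here 4 of 8 fasted arrays lay below the fed range, and the fall was 1.35-fold (log2 fold change -0.43, SE 0.149, limma adjusted p = 0.0474). This call is not firm, since it was lost in 18 of 27 alternatives, with adjusted p from 0.0210 to 0.0967 over all 27.

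**Figure D2:**
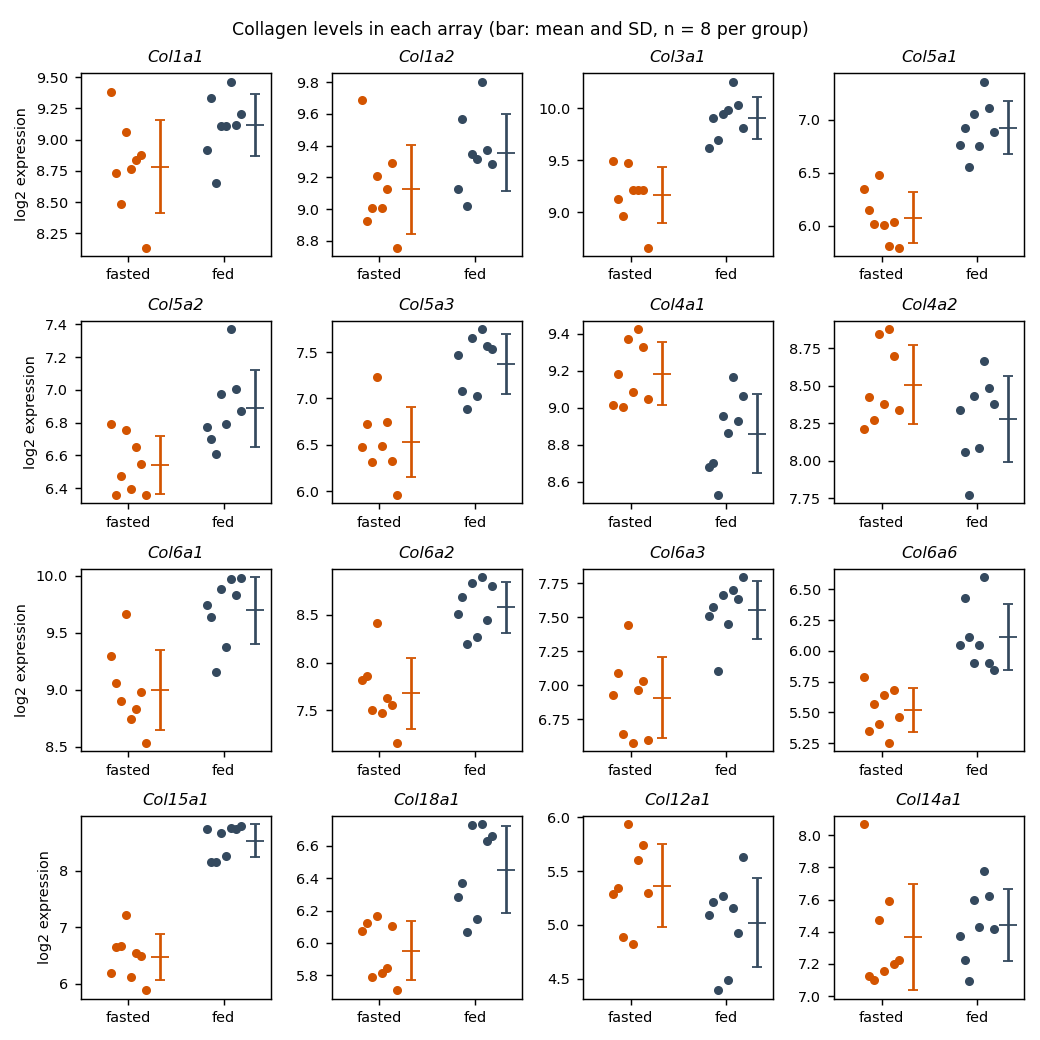
Log2 expression of 16 collagen genes in each of the 8 fasted (orange, left) and 8 fed (dark, right) arrays, with the mean and SD of each group; each panel has its own axis. The groups are apart in Col3a1, Col5a1, Col6a6 and Col15a1 and overlap in the others, and Col4a1 is the called gene whose fasted mean is higher.

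Markers of other cells that make collagen were looked at beside these falls, and their counts are to be read against the 34.6% of genes called above the dim range. Of 8 measured markers of fibroblasts and preadipocytes, 1 fell, Cd34, and none rose, with a median log2 fold change of -0.007. The mean of the list lay between 9.17 and 9.67 in fasted and between 9.20 and 9.43 in fed arrays, and all 8 were above the dim range. Of 8 markers of smooth muscle and pericytes, 3 were lower (Cspg4, Rgs5 and Notch3) and 1 higher (Acta2), with a median log2 fold change of -0.44. The mean of that list lay between 6.45 and 7.36 in fasted and between 6.86 and 7.72 in fed arrays. Of 8 mesothelial markers 1, Krt19, fell, with a median of -0.23. The mean of the mesothelial list lay between 6.64 and 8.20 in fasted and between 7.31 and 8.08 in fed arrays. Of the 9 adipocyte markers 2 fell (Plin1, by 1.79-fold with no overlap, and Retn) and 2 rose (Plin4 and Cidec), with a median of 0.007. Of 7 macrophage markers, 2 rose (Cd68, by 1.85-fold, and Cd163, by 1.66-fold) and 1, Mrc1, fell, with a median of -0.17. The mean of the macrophage list lay between 8.55 and 9.15 in fasted and between 8.56 and 8.83 in fed arrays. The part of these cell types in the collagen values was not tested.

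To see whether the genes of a pair changed by the same amount, the log2 ratio of the 2 was taken within each array. It was compared between groups for 10 pairs, by a two-sided exact permutation test over all 12870 regroupings of the arrays. The pairs were chains of the same molecule, except for Col1a1 with Col3a1, Col4a1 with Col1a1, Col15a1 with Col18a1 and Col15a1 with Col4a1. The smallest p this design gives is 0.000155, and adjustment was over the 10 pairs. In 7 pairs the ratio differed at an adjusted p under 0.05, and these included every pair of different molecules. The pairs were chosen with earlier results of these data known, so this count does not compare the 2 kinds of pair. The same-molecule pairs among the 7 were Col5a1 with Col5a2, Col6a1 with Col6a2 and Col6a2 with Col6a3. Each of these same-molecule pairs lost its call in an alternative given below.

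Type I and type III separated. The ratio of Col1a1 over Col3a1 was higher in fasted arrays by 0.40 on the log2 scale (95% interval 0.25 to 0.56, adjusted p = 3.89e-04 by exact permutation, n = 8 per group). In contrast, the 2 chains of type I kept their ratio within the spread, with a difference of -0.10 (interval -0.24 to 0.04, adjusted p = 0.168). The 2 chains of type V did not, since Col5a1 over Col5a2 was lower by 0.50 (interval -0.66 to -0.34, adjusted p = 3.89e-04). With the dim Col5a1 probe set that difference was 0.08 (adjusted p = 0.679).

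The chains of type IV kept their ratio within the spread. Col4a1 over Col4a2 differed by 0.09 (interval -0.05 to 0.23, adjusted p = 0.170), so the call of Col4a1 and the missing call of Col4a2 do not show that these neighbours changed unequally. Between matrices the ratio did differ: Col4a1 over Col1a1 was higher in fasted arrays by 0.65 (interval 0.35 to 0.95, adjusted p = 0.00249).

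Within type VI the changes were unequal by small amounts. Col6a1 over Col6a2 was higher by 0.21 (interval 0.07 to 0.34) and Col6a2 over Col6a3 lower by 0.26 (interval -0.42 to -0.09), both with an adjusted p of 0.0107. Without fasted replicate 7 and fed replicates 2 and 3 these differences were 0.14 and -0.20 and did not pass (adjusted p = 0.0808 for both). With the lower Col6a1 probe set the first was 0.05.

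Col15a1 fell more than Col18a1, and its ratio to Col4a1, which rose, was lower too. The ratio of Col15a1 over Col18a1 was lower in fasted arrays by 1.56 (interval -1.85 to -1.27) and that of Col15a1 over Col4a1 by 2.38 (interval -2.68 to -2.08), both at an adjusted p of 3.89e-04. The Col15a1 and Col4a1 pair sets the largest fall against the only called rise, so its test could hardly have come out otherwise. Col8a1 over Col8a2 was higher by 0.37 (interval -0.06 to 0.80, adjusted p = 0.106), and Col8a2 was dim.

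**Figure D3:**
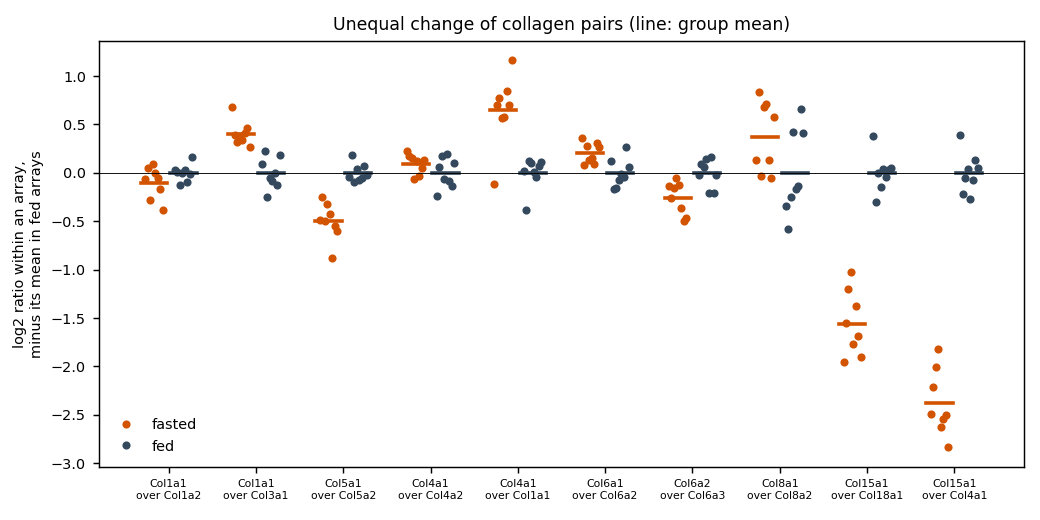
Log2 ratio of 10 collagen pairs within each array, set to 0 at the mean of the fed arrays, for 8 fasted (orange) and 8 fed (dark) arrays; lines are group means. Ratios with Col15a1 on top stand 1.56 and 2.38 lower in fasted arrays, whereas the means of the type I and type IV chain pairs differ by -0.10 and 0.09.

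Most pairs of chains of the same molecule varied together from array to array within a group. So did Col1a1 and Col3a1, of different molecules, in fasted arrays. Correlations of other gene pairs were not computed for comparison. Correlations of the same 10 pairs were computed within fasted and within fed arrays, 20 relations in all, with exact permutation tests (two-sided, n = 8) and adjustment over the 20. By Pearson's r 12 passed, and 10 of those also passed by Spearman's rho. Col4a1 and Col4a2 were the closest pair in fasted arrays, with r = 0.984 (adjusted p = 9.92e-04) and rho = 0.976 (adjusted p = 0.00794), both by exact permutation, and r was 0.969 without the 2 arrays farthest from the median. In fed arrays r was 0.845 and rho 0.833, with r = 0.530 without those 2 arrays, so that relation rests in part on fed replicates 3 and 6, and without fasted replicate 7 and fed replicates 2 and 3 it was 0.607 (adjusted p = 0.210).

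Col1a1 followed Col1a2 with r = 0.909 and rho = 0.952 in fasted arrays and r = 0.936 and rho = 0.857 in fed arrays, and with r = 0.678 and 0.894 after the 2 farthest arrays were left out. Without fed replicates 2 and 3 the fed relation had r = 0.937 and did not pass (adjusted p = 0.0586 by exact permutation over the remaining arrays). Col1a1 followed Col3a1 in fasted arrays (r = 0.970, rho = 0.905, r = 0.967 without 2 arrays), although their means changed by unequal amounts. In fed arrays that pair had r = 0.767 but rho = 0.595, which did not pass (adjusted p = 0.189 by exact permutation), and without fed replicates 2 and 3 its r of 0.839 did not pass either (adjusted p = 0.111). Col6a1 and Col6a2 had r = 0.958 in fasted and 0.870 in fed arrays (rho = 0.905 and 0.833), and r = 0.789 and 0.560 without the 2 farthest, so the fed relation rests in part on fed replicates 3 and 5. Col6a2 and Col6a3 had r = 0.897 in fasted and 0.836 in fed arrays (rho = 0.881 and 0.857), with r = 0.716 and 0.652 without the 2 farthest, and the fed relation did not pass without fed replicates 2 and 3 (r = 0.831, adjusted p = 0.0833 by exact permutation).

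The type V chains Col5a1 and Col5a2 were an exception in fasted arrays, where r was 0.601 (adjusted p = 0.149) and rho 0.476 (adjusted p = 0.304), by exact permutation, and r was -0.34 without fasted replicates 1 and 4. In fed arrays the same chains had r = 0.931 (rho = 0.833), and r = 0.772 without the 2 farthest. Col4a1 and Col1a1, of different matrices, had r = 0.276 (rho = 0.357) in fasted arrays. In fed arrays they had r = 0.756 (adjusted p = 0.0480 by exact permutation) and rho = 0.738 (adjusted p = 0.0833). That fed value was 0.179 without fed replicates 3 and 6 and 0.943 without fed replicates 2 and 3, so it depends on which arrays are kept. Neither Col15a1 pair passed in either group. Col8a1 and Col8a2 had r = 0.030 in fasted and 0.204 in fed arrays. All arrays of a group share their normalization, and overall tissue makeup can differ between arrays.

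The same few arrays were at the ends for many of the 11 genes that fell. Among fasted arrays, replicate 4 was the highest for 7 of the 11 and replicate 8 the lowest for 7. Among fed arrays, replicate 6 was the highest for 7 and replicate 3 the lowest for 9. The mean level of smooth muscle and pericyte markers, 1 of several cell lists, was highest in fasted replicate 4 (7.36) and fed replicate 6 (7.72). It was lowest in fasted replicate 8 (6.45) and fed replicate 3 (6.86). Fasted replicate 3 (7.34) and fed replicate 5 (6.88) lay close to these ends. Other lists shared some of them. The fibroblast and preadipocyte mean was also lowest in fasted replicate 8 (9.17) and highest in fed replicate 6 (9.43). However, it was highest in fasted replicate 1 (9.67) and lowest in fed replicate 2 (9.20). The hepatocyte mean was highest in fasted replicate 4 (8.82) and fed replicate 3 (9.46). The part of any of these cell types in the collagen levels was not tested.

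**Figure D4:**
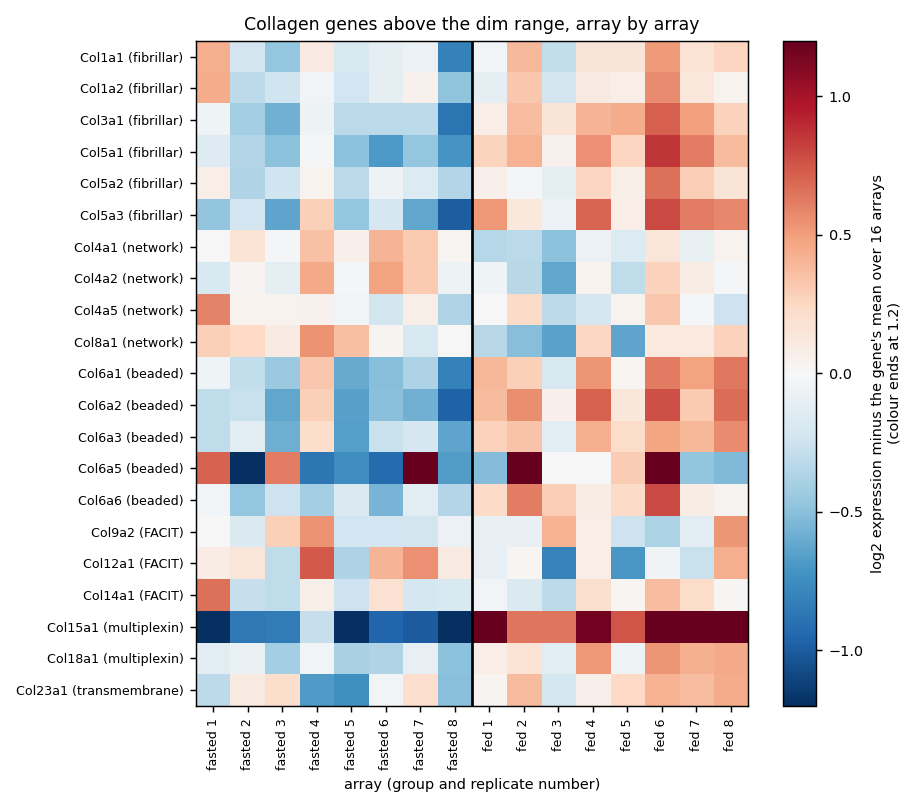
Log2 expression of the 21 collagen genes above the dim range in each array, minus the mean of the gene over 16 arrays, with fasted arrays left of the line and fed arrays right; colours end at 1.2 on either side. Col15a1 is blue in all 8 fasted and red in all 8 fed arrays, whereas Col6a5 is patchy in both groups.

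Collagen genes that lie next to each other in the genome were set side by side, from the order of protein-coding genes in RefSeq (GRCm38.p6). With no coding gene between them, Col3a1 and Col5a2 on chromosome 1 both fell, as did Col6a1 and Col6a2 on chromosome 10, where Col18a1, which also fell, lies 2 coding genes further on. Next to Col6a6, which fell, lies Col6a5 on chromosome 9, with -0.48 and no call. Col4a1 and Col4a2 on chromosome 8 had 0.32 and 0.23. The other 5 neighbouring pairs had no call in either gene: Col9a1 with Col19a1, Col4a4 with Col4a3, Col6a5 with Col6a4, Col4a6 with Col4a5, and Col9a3 with Col20a1, which has 9 coding genes between.

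Of the 12 promoter windows of 10 genes that fell, 7 held a GC box, with both windows of Col6a2 among them, and 2 a CCAAT box. Of all 38 collagen windows 23 held a GC box and 13 a CCAAT box. The half-site of the glucocorticoid receptor (AGAACA, either strand) was in none of the 12, in 2 of the 38 collagen windows and in 19.0% of all windows. Its full palindrome (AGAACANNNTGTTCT, which contains the half-site on both strands) was in none of the 38 and in 3 of the 32851 windows. The TATA box (TATAAA) was in 1 of the 12, that of Col3a1, and in 13.6% of all windows. These windows of 300 bases show no more than which letters they hold.

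Genes that act on collagen were read from the same test in 7 lists with 84 measured genes of 91. The genes named here by fold passed the limma test at an adjusted p under 0.05 unless stated. Of the 84, 18 fell and 10 rose, and after subtraction of array medians 13 fell and 13 rose. Without fasted replicate 7 and fed replicates 2 and 3, 18 fell and 7 rose. Of the rises followed singly, Ccn2 alone lost its call there. The other lost rises therefore lie among Plod2, Tnxb and Lamb1, which were not followed singly. Over all genes 10.7% fell and 8.49% rose, and 34.6% of the genes above the dim range were called, so the count of called partner genes is near the background. The endoplasmic reticulum list, which folds, hydroxylates and ships procollagen, had 7 of 19 lower and 1 higher, with a median log2 fold change of -0.14. Serpinh1, the chaperone that binds the collagen helix, had the largest fall, with 6.95 ± 0.23 in fasted and 7.95 ± 0.26 in fed arrays (SD, n = 8 each; log2 fold change -1.0, SE 0.116, limma adjusted p = 4.41e-06). The prolyl isomerase Fkbp14 fell 1.68-fold, Crtap, of the prolyl 3-hydroxylase complex, 1.5-fold, and P4ha2, a subunit of prolyl 4-hydroxylase, 1.36-fold. Serpinh1, Fkbp14 and Crtap did not overlap between groups. Nor did Sec23a, named after its value was seen (log2 fold change -0.27, limma adjusted p = 0.00154). Over all genes 3.45% lay wholly below the fed arrays. The 1 gene of this list that rose was Plod2, a lysyl hydroxylase, by 0.36 on the log2 scale (limma adjusted p = 0.00175), named after its value was seen.

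Outside the cell, propeptide cleavage and cross-linking had 2 of 11 lower and 1 higher (median -0.10). Pcolce, which helps cut off the C-terminal propeptide, had 5.56 ± 0.35 in fasted and 6.37 ± 0.07 in fed arrays, with no overlap (limma adjusted p = 7.06e-05). The related protease gene Tll1 fell 1.36-fold. The cross-linking enzyme Lox went the other way, with 9.61 ± 0.25 in fasted and 8.04 ± 0.33 in fed arrays (log2 fold change 1.57, SE 0.136). Of the 8 collagen receptors 2 fell and none rose (median -0.12). These were Lair1, an inhibitory receptor of immune cells, by 1.54-fold, and Ddr1, a receptor tyrosine kinase, by 1.55-fold, for which the other probe set gave 0.19 and no call.

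Among 12 proteins that bind fibrils, Lum, Aspn and Prelp, all small leucine-rich proteoglycans, fell 1.6-fold, 1.33-fold and 1.32-fold, while Postn, a matricellular protein, rose 1.63-fold. The call of Prelp is not firm, since it was lost in 16 of 27 alternatives, and the other Prelp probe set gave -0.14 (adjusted p = 0.649). The other rise was that of Tnxb, a tenascin, named after its value was seen (log2 fold change 0.27, limma adjusted p = 0.0498). Of 11 basement membrane partners 3 rose and 2 fell (median -0.07). Nid2, a linker of laminin and type IV collagen, had 7.37 ± 0.27 in fasted and 8.43 ± 0.20 in fed arrays, and Pxdn, the peroxidase that cross-links type IV collagen, fell 1.36-fold. The laminin chains Lama5, Lama2 and Lamb1 rose by 0.66, 0.30 and 0.18 on the log2 scale. Lama5 and Lama2 kept their call in all 27 alternatives. The call of Lamb1 was near the threshold (limma adjusted p = 0.0428) and was not followed singly through them.

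In the breakdown list 2 of 12 rose and 1 fell (median -0.02). Mmp14, a membrane-bound collagenase, rose 1.36-fold, and the stromelysin Mmp3, which was dim, had 3.81 ± 0.32 in fasted and 2.96 ± 0.13 in fed arrays with no overlap. Pepd, the prolidase that frees proline from collagen fragments, had 7.23 ± 0.17 in fasted and 7.90 ± 0.05 in fed arrays, also with no overlap (limma adjusted p = 2.12e-06). Of 11 profibrotic signalling genes Tgfb3 fell 1.43-fold and Ccn2 rose 1.61-fold (median 0.18), though the other Ccn2 probe set gave -0.25 and no call, and without the 3 arrays Ccn2 had 0.56 (adjusted p = 0.0527).

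**Figure D5:**
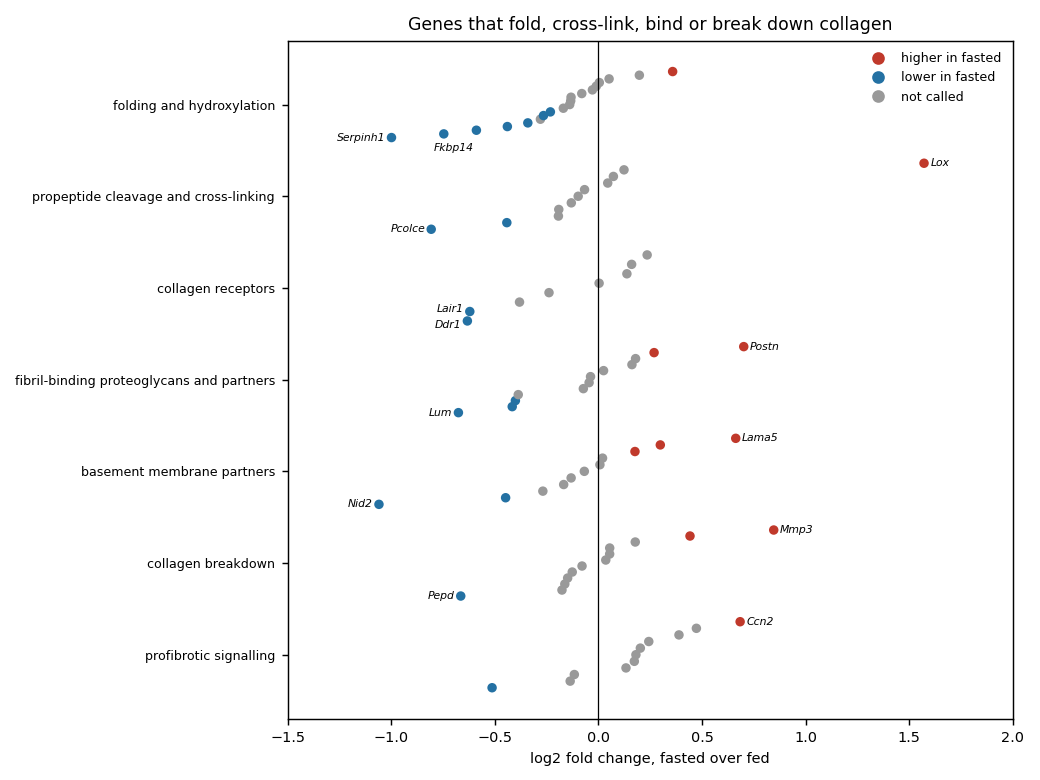
Log2 fold change, fasted over fed, of 84 genes in 7 lists of collagen-related function, 1 point per gene; blue points were lower and red points higher in fasted arrays, grey points were not called. Serpinh1 and Nid2 lie farthest left at -1.0 and -1.06, and Lox farthest right at 1.57.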

How the data were processed

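Gonadal white adipose tissue RNA was measured on 1 Affymetrix array per sample, 8 fasted and 8 fed, from 100 ng of total RNA per the labels' protocols. The deposited values are log2 expression per probe set. The submitters' processing notes name RMA without a version, and no filter is stated in them. RMA sets arrays to a shared distribution, so changes are relative to other transcripts on the array. The number of arrays limits the precision. No scan date or other batch is given in the sources used here.

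Groups and replicate numbers were taken from the sample titles. Of 41345 probe sets, 23521 had 1 gene symbol, 1814 several and 16010 no name here. The 1 probe set that pairs Col6a1 with other symbols was not used. The test of fasted against fed arrays was that of limma 3.58.1 (R 4.3.3), a linear model per gene with moderated variance, with Benjamini-Hochberg adjustment over all 22180 genes. Pair ratios and correlations used exact permutation tests (scipy 1.17.1, numpy 2.4.6, Python 3.11.15). On simulated data of 22180 genes, 62.7% of 67 changes of 0.5, 98.5% of 67 of 1 and 100% of 66 of 2 on the log2 scale were recovered. There were 8 false calls. Far fewer genes were changed there than the 4251 called in the data, so these shares do not give the power of the real comparison.

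Full values were given for every called collagen and a fixed panel of 14, other collagens by ranges, and of each partner list up to 4 called genes by size. The members, lists, pairs and motifs were chosen with earlier results of these data known. Alternatives are given in the closing section. Promoter sequences are from RefSeq (GRCm38.p6), and figures were drawn with matplotlib 3.10.9.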

Additional observations from a re-analysis of the deposited data

Results flagged for a closer look

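In 9 of 132 groups of 8 arrays (66 genes, each in fasted and in fed arrays), 1 array lay apart from the other 7 by Dixon's criterion, and chance gives about 1 in 20. Among collagens, fasted replicate 2 was high for Col28a1 (4.09, next 3.35), fasted replicate 4 for Col22a1 (3.28, next 2.84), fasted replicate 3 for Col11a1 (3.20, next 2.97) and fasted replicate 1 for Col4a5 (5.91, next 5.39). Fed replicate 3 was low for Col7a1 (2.74, next 3.09) and Col4a6 (3.60, next 3.99), and fed replicate 1 was high for Col17a1 (3.08, next 2.90). All of these collagens but Col4a5 were dim. Among partner genes, fed replicate 1 was high for Crtap (9.81, next 9.52) and fed replicate 3 low for Prelp (11.03, next 11.43). None of the 12 called collagens was among them.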

How the results depend on the processing

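The 12 collagen calls were recomputed under 27 alternatives: a filter on dim genes, subtraction of array medians, cyclic loess, trend and robust eBayes, array weights, the replicate block, without the 3 arrays that stand apart, a hepatocyte covariate, the probe set with the lowest mean, an exact rank sum test, a threshold of 0.01, and each of 16 arrays left out. Col3a1, Col5a3, Col6a1, Col6a2, Col6a3, Col6a6, Col15a1 and Col18a1 kept their call and direction in all 27, Col5a1 in 26 (not with the probe set of the lowest mean), Col5a2 in 26 (not at 0.01), Col4a1 in 25 (not at 0.01 or without the 3 arrays) and Col23a1 in 9. The count of higher collagens, 1 in the reported setting, was 2 after subtraction of array medians and with the exact rank sum test, 0 at a threshold of 0.01 and without the 3 arrays, and 1 to 2 with single arrays left out. The added gene was Col7a1. The count of called genes over the array was 2766 at 0.01. After subtraction of array medians higher calls were 54.7% of all calls, against 44.3% as reported. Single arrays left out gave 10 to 11 lower collagens, 22 to 30 called partner genes and 7 to 8 unequal pairs. Without the 3 arrays, 8 correlations passed in place of 12. The probe set with the lowest mean reversed Ddr1 (0.19), Ccn2 (-0.25) and Col5a1 over Col5a2 (0.084), and it has other probes by construction. Calls of Tll1, Aspn and Prelp were lost in 8, 4 and 16 of 27 alternatives. Same-numbered samples did not deviate together (correlations from -0.22 to 0.22, 2 of 8 pairs over 0.1, and 1 fasted array of 8 correlated best with its own number). With the replicate block 11 collagens and 3829 genes were called, and Col23a1 lost its call (adjusted p = 0.0585).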
